A study of Homo sapiens with 4 samples.

Results

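SOX genes encode transcription factors, and 8 of them are described here: SOX4, SOX9, SOX2, SOX5, SOX6, SOX11, SOX12 and SOX13. They were picked by gene name, as array features (transcript clusters) whose annotation carried that symbol and no other, and of several such clusters the brightest by its 4-array mean was to be used. That last step had no effect, because each of the 8 genes had 1 such cluster, of 22411 genes that could be named. The members were chosen with earlier results of these data known, the large fall of SOX4 among them. The adjusted p-values below are therefore no independent evidence that SOX genes respond.

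The cells were HCT116, a widely used line from a human colon carcinoma whose beta-catenin gene bears a mutation that stabilises the protein. They were transfected with 50 nM siRNA for 48 h, either a control siRNA or an siRNA against CTNNB1, the gene for beta-catenin. Each group had 2 samples called biological replicates, with 1 array each, and nothing in the sample descriptions says that they were separate cultures. The p-values then measure only the spread between these arrays, and the number of arrays limits the precision.

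SOX proteins bind DNA through a high mobility group (HMG) box, a domain they share with the TCF and LEF factors that recruit beta-catenin to Wnt target genes. Several SOX proteins also bind beta-catenin or TCF themselves, and can raise or damp Wnt-driven transcription. The family is divided into groups by sequence, and its members are known for roles in progenitor cells and in the choice of cell lineage. In the mouse intestine SOX9 marks the crypt base, where it is needed for Paneth cells, and SOX4 is found in crypt progenitors and is often raised in colon tumours.

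CTNNB1 itself stood at 10.06 and 10.20 deposited log2 units with control siRNA and at 6.50 and 6.65 with CTNNB1 siRNA, so both arrays labelled as silenced were low for the target. The correlation over tested genes between the arrays of a group was r = 0.997 for each group, and genes are not independent replicates. Of 11 colon epithelial markers, EPCAM and the keratin genes KRT8, KRT18 and KRT19 lay above 10 log2 units on all arrays. CDX1, CDX2, VIL1, GPA33 and CEACAM5, which mark intestinal epithelium, were under 4.29 log2 units, the level filter described below. Of the 6 epithelial markers above the filter, 4 rose and 0 fell in limma at the adjusted threshold (0 fell at an unadjusted p under 0.05), CDH1 most, by 2.27 (SE 0.19). Over all tested genes, 14.2% were called higher. EPCAM was among the 4, with an adjusted p of 0.0285 in limma and 0.052 with a trended prior. Of 6 markers of blood cells, endothelium, fibroblasts and smooth muscle, 3 were under the filter, PTPRC and PECAM1 among them, and 0 of the other 3 were called in limma, adjusted or unadjusted. Of the neural genes MAP2 and NES, MAP2 rose by 1.49 (SE 0.11). NES stood at 5.25 and 5.66 with control siRNA and at 5.07 and 5.25 with CTNNB1 siRNA, a log2 difference of -0.295 (SE 0.15, adjusted p 0.22 in limma), and the groups met at 5.25. Whether these shifts bear on the SOX values was not tested.

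SOX4 and SOX9 were lower after CTNNB1 siRNA, and none of the other SOX genes passed the test in either direction. A gene was tested when its mean over the 4 arrays passed the level filter, the 30th percentile of all named genes, which 5 of the 8 members did. Of these 5, 2 were called lower and 0 higher at an adjusted p under 0.05 in limma with Benjamini-Hochberg adjustment over 15679 genes, and 0 were higher at an unadjusted p under 0.05. The background was high: 16.1% of all tested genes were called lower and 14.2% higher. The median log2 fold change of the 5 tested members was -0.085, and that of all tested genes was -0.015. Adding 11 further SOX genes brought the tested SOX genes to 9 of 19, of which 0 further ones were called, with 1, SOX8, at an unadjusted p under 0.05 in limma.

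**Figure D1:**
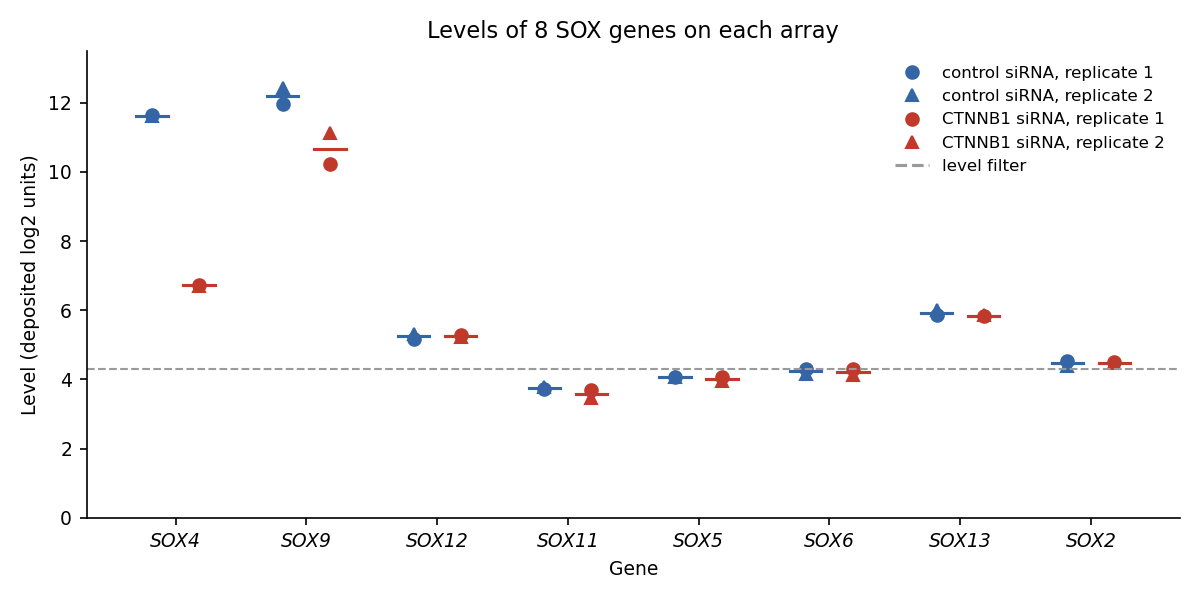
Level of 8 SOX genes on each of 4 arrays, in deposited log2 units, with circles for replicate 1, triangles for replicate 2, short bars for group means and a dashed line for the level filter of 4.29. The groups are far apart for SOX4 and separate for SOX9, while the other 6 genes lie between 3.47 and 6.0 in both groups. Levels of different genes come from different probes and are not to be ranked.

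SOX4, SOX11 and SOX12 form the C group, whose proteins carry an activation domain at the end of the chain and act in progenitors of many tissues. SOX4, on chromosome 6, stood at 11.64 and 11.60 log2 units with control siRNA and at 6.74 and 6.70 with CTNNB1 siRNA. Both silenced arrays were far below both controls, and the arrays of each group differed by 0.04. SOX4 thus fell by 4.90 log2 units (SE 0.08), with a 95% interval from -5.09 to -4.71. This is 29.9-fold on the scale of the deposited values, and the adjusted p in limma was 4.02e-05.

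This was the lowest log2 fold change of all 15679 tested genes, below that of CTNNB1 itself at -3.56. The arrays held no other means of lowering CTNNB1, so loss of beta-catenin and other effects of this siRNA cannot be told apart. The SOX4 level after silencing, 6.72 ± 0.03 (SD, n = 2), still lay above the level filter. In bulk RNA, fewer cells with SOX4 transcripts and fewer transcripts in each cell cannot be told apart. The call was lost without any 1 of the 4 arrays, when 1 residual degree of freedom remained: the adjusted p in limma was then 0.055 to 0.076, at a log2 fold change of -4.92 to -4.88.

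The SOX4 promoter is shown because no tested gene fell further. It covers the 250 bases before the start of SOX4 in RefSeq (GRCh38.p14, chr6:21593501-21593750, plus strand). The corresponding stretch of SOX2 (GRCh38.p14, chr3:181711675-181711924, plus strand) is set beside it as that of a tested gene that was not called, a choice made after the values were seen. Capitals mark the TCF/LEF core, CTTTGA or CTTTGT, and the CCAAT box, each searched on both strands, so that CCAAT on the other strand reads ATTGG.
SOX4: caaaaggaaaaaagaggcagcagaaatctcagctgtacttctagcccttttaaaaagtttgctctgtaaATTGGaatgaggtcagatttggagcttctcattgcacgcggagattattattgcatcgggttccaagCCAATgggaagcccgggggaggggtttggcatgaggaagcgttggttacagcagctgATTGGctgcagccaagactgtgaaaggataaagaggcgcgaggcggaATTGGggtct
SOX2: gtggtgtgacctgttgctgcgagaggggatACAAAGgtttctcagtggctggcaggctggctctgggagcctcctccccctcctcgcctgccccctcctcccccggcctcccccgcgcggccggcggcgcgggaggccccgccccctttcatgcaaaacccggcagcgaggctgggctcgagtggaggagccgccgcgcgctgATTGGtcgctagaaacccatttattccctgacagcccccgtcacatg

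The SOX4 stretch held no TCF/LEF core and 4 CCAAT boxes, the nearest starting 10 bases before the gene start. The SOX2 stretch held 1 core, starting 220 bases before the gene start and read as ACAAAG, the core on the other strand, which is also a common SOX binding motif. Its 1 CCAAT box started 47 bases before the start. In windows of 300 bases, which add 50 bases after the start, 26.2% of 35116 promoters in the RefSeq table held at least 1 core, 34.6% held at least 1 CCAAT box and 0.991% held at least 4. The CCAAT box was searched after the SOX4 sequence had been read. These are matches of letters, and no binding was measured. Of the other members with a window, SOX12, SOX13 and SOX5 held no core, and 2 of the 5 windows of SOX6 held 1 or more. SOX9, the other member that was called, and SOX11 had no window, so their promoters were not searched.

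Of the other members of the C group, SOX12 was tested and not called. SOX12, on chromosome 20, stood at 5.18 and 5.31 log2 units with control siRNA and at 5.28 and 5.22 with CTNNB1 siRNA, so the groups overlapped. Its log2 fold change was 0.005 (SE 0.09, 95% interval -0.21 to 0.22) and its adjusted p in limma 0.97. SOX11, on chromosome 2, a gene of neural progenitors, lay below the level filter and was not tested. Its levels were 3.71 and 3.79 with control siRNA and 3.69 and 3.47 with CTNNB1 siRNA, all low, with the silenced arrays just under the controls.

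SOX9 belongs to the E group with SOX8 and SOX10 and directs cartilage, testis and intestinal crypt development. SOX9, on chromosome 17, stood at 11.97 and 12.42 log2 units with control siRNA and at 10.23 and 11.11 with CTNNB1 siRNA. The groups did not overlap, but the silenced arrays differed by 0.88 and the controls by 0.45. SOX9 thus fell by 1.53 log2 units (SE 0.30), or 2.88-fold, with a 95% interval from -2.28 to -0.77, and the adjusted p in limma was 0.014. The interval lies wholly above that of SOX4.

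The spread of SOX9 between arrays was large for this table. Its SE was reached or passed by 0.242% of tested genes, against a median SE of 0.09. Within arrays of the same replicate number the differences were -1.74 and -1.31. A fall of at least this size was seen in 119 tested genes, or 0.759%. This call was likewise lost without any 1 of the 4 arrays. The log2 fold change was then -1.97 to -1.09, smallest in size without CTNNB1 siRNA replicate 1, and the adjusted p in limma 0.067 to 0.23.

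SOX8, a close relative of SOX9 on chromosome 16, stood at 4.76 and 4.99 log2 units with control siRNA and at 4.47 and 4.57 with CTNNB1 siRNA. Both silenced arrays were below both controls, by a log2 difference of -0.36 (SE 0.11), and the adjusted p in limma was 0.053. It was 0.043 when limma let the prior variance follow the level. SOX10, known from neural crest and glia, had levels of 4.84 and 4.73 with control siRNA and 4.82 and 4.68 with CTNNB1 siRNA, which overlapped.

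SOX5, SOX6 and SOX13 form the D group, which lacks an activation or repression domain of its own and works through partners. In cartilage SOX5 and SOX6 act beside SOX9. SOX13, on chromosome 1, was the member of the group that was tested, with levels of 5.86 and 6.0 log2 units under control siRNA and 5.84 and 5.85 under CTNNB1 siRNA. The groups were separated by 0.01 only. The log2 fold change was -0.085 (SE 0.09, 95% interval -0.30 to 0.13), with an adjusted p of 0.54 in limma.

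SOX5, on chromosome 12, stood at 4.06 on both control arrays and at 4.07 and 3.96 on the silenced ones. SOX6, on chromosome 11, stood at 4.30 and 4.17 with control siRNA and at 4.30 and 4.14 with CTNNB1 siRNA. Both genes overlapped between groups and lay below the filter by their means, 4.04 and 4.23, so neither was tested. SOX2, on chromosome 3, of the B1 group and known from pluripotent and neural stem cells, passed the filter narrowly with a mean of 4.48. Its levels were 4.54 and 4.40 with control siRNA and 4.50 and 4.47 with CTNNB1 siRNA. These overlapped, with a log2 fold change of 0.015 (SE 0.09, 95% interval -0.20 to 0.23) and an adjusted p of 0.93 in limma.

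The filter parted genes of nearly the same mean, SOX2 just inside it and SOX6 just outside. A level near the filter may hold little signal of the gene itself, since no detection call was used, so a lack of change there is a statement about the array signal. Among the 8 members the groups did not overlap for 4, which were SOX4, SOX9, SOX13 and SOX11, all lower with CTNNB1 siRNA. Among the 5 tested members this held for 3, and among all tested genes 34.2% had groups that did not overlap and lay lower.

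**Figure D2:**
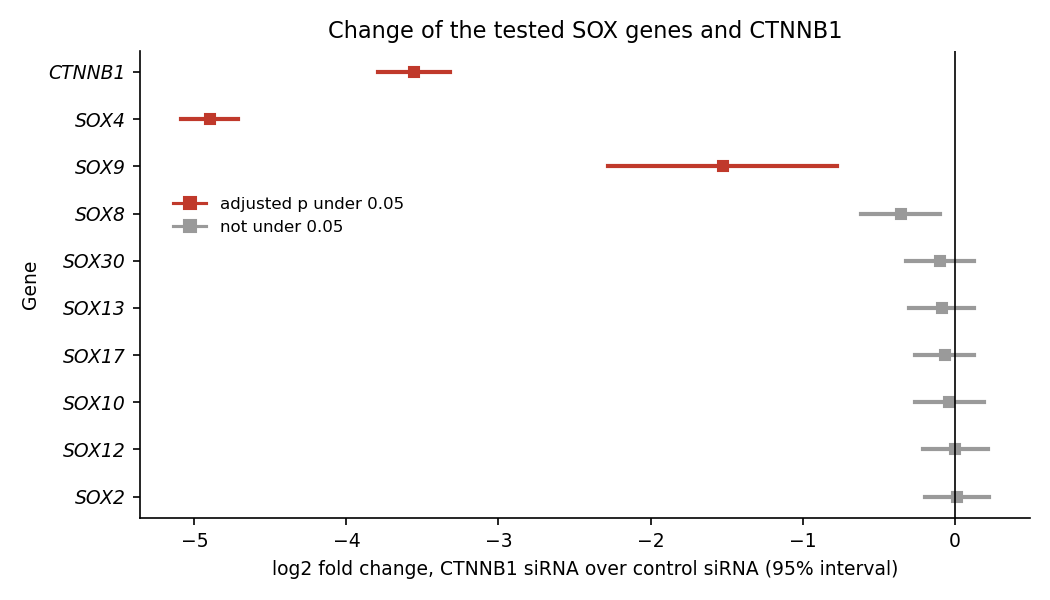
Difference of CTNNB1 siRNA from control siRNA (log2 fold change, points) and its 95% interval from limma (lines), for CTNNB1 and the 9 SOX genes that were tested. SOX4 at -4.90 and SOX9 at -1.53 are the SOX genes called (red), and the other 7 lie between -0.36 and 0.015 (grey).

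Of the 11 SOX genes outside the 8, SOX8, SOX10, SOX17 and SOX30 were tested, and the log2 fold change was -0.065 for SOX17 (SE 0.08) and -0.095 for SOX30 (SE 0.09). SOX17 is an endoderm factor and SOX30 a germ cell factor. The remaining 7, SOX1, SOX3, SOX7, SOX14, SOX15, SOX18 and SOX21, lay below the filter with group means between 3.27 and 4.15. Over all 10 untested SOX genes the differences between group means ran from -0.245 to 0.11.

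**Figure D3:**
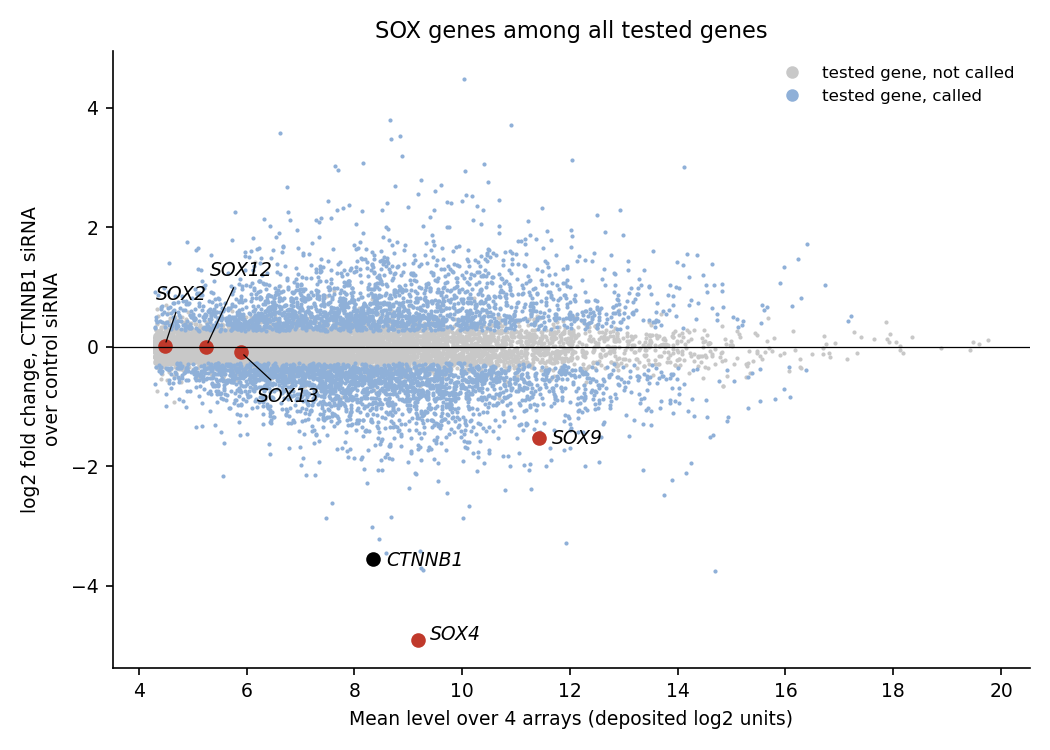
Log2 fold change after CTNNB1 siRNA relative to control siRNA (vertical) against the mean level over 4 arrays for 15679 tested genes, blue where called and grey where not, with the 5 tested members in red and CTNNB1 in black. SOX4 lies lowest of all genes at -4.90, SOX9 lies at -1.53, and SOX2, SOX12 and SOX13 lie in the grey band.

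The genes whose profile over the 4 arrays lay closest to that of SOX4 were RNF43, JAG1, KITLG, CTNNB1 and ADAM19. Likeness was the distance between deviations from each gene's own 4-array mean, over all tested protein-coding genes. RNF43, a ubiquitin ligase that clears Wnt receptors from the cell surface, lay 1.23 log2 units away, and ADAM19, a metalloprotease gene, 1.51. None of these genes fell as far as SOX4. The control levels of RNF43 were 11.03 and 11.13 and its silenced levels 7.20 and 7.55.

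SOX9 had closer companions. NTSR1, the neurotensin receptor gene, lay 0.210 log2 units away and WNT16, a Wnt ligand gene, 0.222. CYB5B, a mitochondrial cytochrome b5, TIAM1, an exchange factor that activates the GTPase RAC1, and SESTD1 followed at up to 0.281. NTSR1 stood at 9.97 and 10.27 with control siRNA and at 8.32 and 9.23 with CTNNB1 siRNA, with CTNNB1 siRNA replicate 1 lowest as for SOX9. With 4 arrays in 2 groups such likeness is a description only, and it gathers genes with a like fall.

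**Figure D4:**
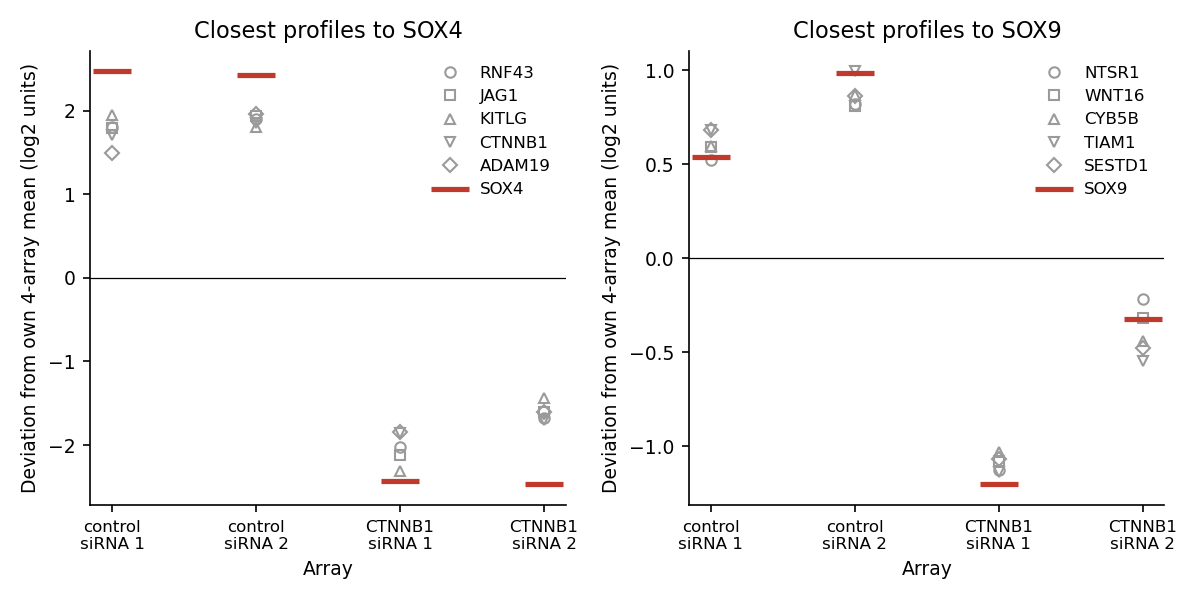
Deviation of each gene from its own 4-array mean, in log2 units, on each array, for SOX4 (left, red bars) and SOX9 (right, red bars) with the 5 protein-coding genes closest to each (grey symbols). SOX4 deviates further than its 5 neighbours on each array, while SOX9 lies close to its own, with CTNNB1 siRNA replicate 1 below replicate 2.

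Genes beside the members on the chromosome were compared by their order in the RefSeq gene table (GRCh38.p14), up to the nearest protein-coding gene on each side. Of 21 such genes with an array feature on the member's chromosome, 13 were tested, 4 of which fell and 1 of which rose. That is 38.5% called, where 30.3% of all tested genes were called in either direction. CDKAL1, a tRNA-modifying enzyme gene, is the nearest protein-coding gene on one side of SOX4, with noncoding genes and pseudogenes between them. It went from 10.10 and 9.93 log2 units to 9.49 and 9.62. It fell by 0.46 (SE 0.10), with an adjusted p of 0.018 in limma, beside a fall of 4.90 for SOX4. The other genes that fell lie beside members that were not called or not tested. SNRPE, a splicing factor gene on the side of SOX13, fell by 0.875 (SE 0.09, adjusted p 0.0015 in limma). ETNK1, an ethanolamine kinase gene on the side of SOX5, fell by 0.615 (SE 0.13, adjusted p 0.016 in limma). ATP11B, a phospholipid-transporting ATPase gene on the side of SOX2, fell by 0.545 (SE 0.12, adjusted p 0.022 in limma). The gene that rose was RNA5SP150, a 5S ribosomal RNA pseudogene near SOX2, by 0.55 (SE 0.09, adjusted p 0.0071 in limma); its feature may mix signal from other 5S copies. These genes were named after their values were seen.

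The noncoding gene SOX9-AS1 had 2 features. The brighter stood at 5.36 and 5.14 with control siRNA and at 5.41 and 5.35 with CTNNB1 siRNA, a log2 difference of 0.13 with an adjusted p of 0.41 in limma, and the other had a difference of 0.03. The protein-coding neighbour SLC39A11, a zinc transporter gene, differed by 0.30 log2 units (SE 0.18, adjusted p 0.28 in limma). The other neighbour, KCNJ2, a potassium channel gene, lay below the filter at 3.36 and 3.42 in group means. SOX9 thus fell while the tested features flanking it did not pass. SOX2-OT, the transcript that overlaps SOX2, was below the filter, with levels between 3.70 and 3.81.

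Most of the tested HMG-box proteins outside the SOX family fell. Of 17 tested genes in a list of 23, 10 fell, 0 rose in limma at the adjusted threshold (1 at an unadjusted p under 0.05) and 7 did not pass. The share called was 58.8%, where 30.3% of all tested genes were called in either direction and 16.1% were called lower. A level filter at the 50th percentile kept all 17, and 10 again fell. Of the 11201 genes it kept, 2533 were called lower and 2182 higher, a larger share than over all tested genes. The median log2 fold change of the 17 was -0.58. HMGB2, a chromatin protein abundant in dividing cells, fell by 1.78 (SE 0.09) from 11.46 and 11.33 to 9.64 and 9.59. HMGB3 fell by 1.24 (SE 0.07), HMGB1 fell by 0.94 (SE 0.08) and TFAM, which packages mitochondrial DNA, fell by 0.87 (SE 0.12). Their adjusted p-values in limma ran from 0.00033 to 0.0047. HMGB1 has many near-identical pseudogene copies, whose signal an array may mix.

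The beta-catenin partners of this list differed among themselves. TCF7L2, the main TCF of the intestine, went from 13.40 and 13.33 log2 units to 12.50 and 12.78, and it fell by 0.73 (SE 0.11), with an adjusted p of 0.0066 in limma. TCF7L1, mostly a repressor, differed by -0.145 log2 units (SE 0.08, adjusted p 0.24 in limma). LEF1 lay below the filter with levels between 3.99 and 4.14. TCF7 was not analysed here.

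Genes reported as SOX4 targets in other cells, a list of 15 of which 10 were tested, held 4 that fell, 1 that rose and 5 that missed the threshold. Over all tested genes, 16.1% were called lower and 14.2% higher. A level filter at the 50th percentile kept 9 of these targets, of which 4 fell and 2 rose. Of the 11201 genes it kept, 2533 were called lower and 2182 higher, a larger share than over all tested genes. The median log2 fold change of the 10 tested targets was -0.22. EZH2, the histone methyltransferase of the Polycomb complex, fell by 0.85 (SE 0.13), and DHX9, an RNA helicase gene, fell by 0.85 (SE 0.08). FZD3, a Wnt receptor gene, fell by 0.92 (SE 0.11). TEAD2, a DNA-binding partner of YAP, fell by 0.70 (SE 0.11), with an adjusted p of 0.0065 in limma and 0.055 with the replicate number as a block. The gene that rose was SEMA3C, a secreted guidance factor, by 0.67 (SE 0.12), named after its value was seen.

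Genes reported as SOX9 targets mostly did not pass. Of 12 tested genes in a list of 20, 0 fell in limma at the adjusted threshold and 0 at an unadjusted p under 0.05, 1 rose and 11 did not pass. The share called was 8.33%, where 30.3% of all tested genes were called in either direction. The median log2 fold change of the 12 was -0.01. A level filter at the 50th percentile kept only 4 of them, so most had a low signal. The list was not split into genes reported as induced and genes reported as repressed. The one that rose was PRKCA, which encodes protein kinase C alpha. It went from 7.61 and 8.21 log2 units to 9.61 and 9.73, a rise of 1.76 (SE 0.20), and the adjusted p in limma was 0.0021. The cartilage collagens COL2A1, COL9A1 to COL9A3 and COL11A2 had group means between 4.30 and 4.98, close to the filter. CLDN7, a tight junction gene, had a log2 fold change of -0.01 (SE 0.19).

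None of the tested partners of SOX2 and pluripotency factors passed. Of 9 tested genes in a list of 15, 0 were called in limma at the adjusted threshold and 0 at an unadjusted p under 0.05. The median log2 fold change of the 9 was 0.04. Over all tested genes, 30.3% were called in either direction. A level filter at the 50th percentile kept only 3 of the 9, so most had a low signal. POU5F1, the classical partner of SOX2, stood at 4.40 and 4.49 with control siRNA and at 4.50 and 4.47 with CTNNB1 siRNA. KLF4, which is also a differentiation factor of the gut, stood at 6.55 and 6.50 and at 6.59 and 6.56.

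SOX co-factors and regulators of SOX stability moved both ways. Of 15 tested genes in a list of 19, 5 fell, 4 rose and 6 did not pass. The shares over all tested genes were 16.1% lower and 14.2% higher. Their median was -0.115. The count that fell was 3 with the replicate number as a block. SMAD3, a TGF-beta effector that partners SOX9 in cartilage cells, went from 8.55 and 8.47 to 10.92 and 10.94, a rise of 2.42 (SE 0.08) with an adjusted p of 0.00015 in limma. SDCBP, which encodes syntenin, a protein that stabilises SOX4, rose by 0.77 (SE 0.10), and CREBBP, an acetyltransferase that activates transcription with SOX9, rose by 0.56 (SE 0.11). HDAC1, a histone deacetylase gene, fell by 1.95 (SE 0.19).

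**Figure D5:**
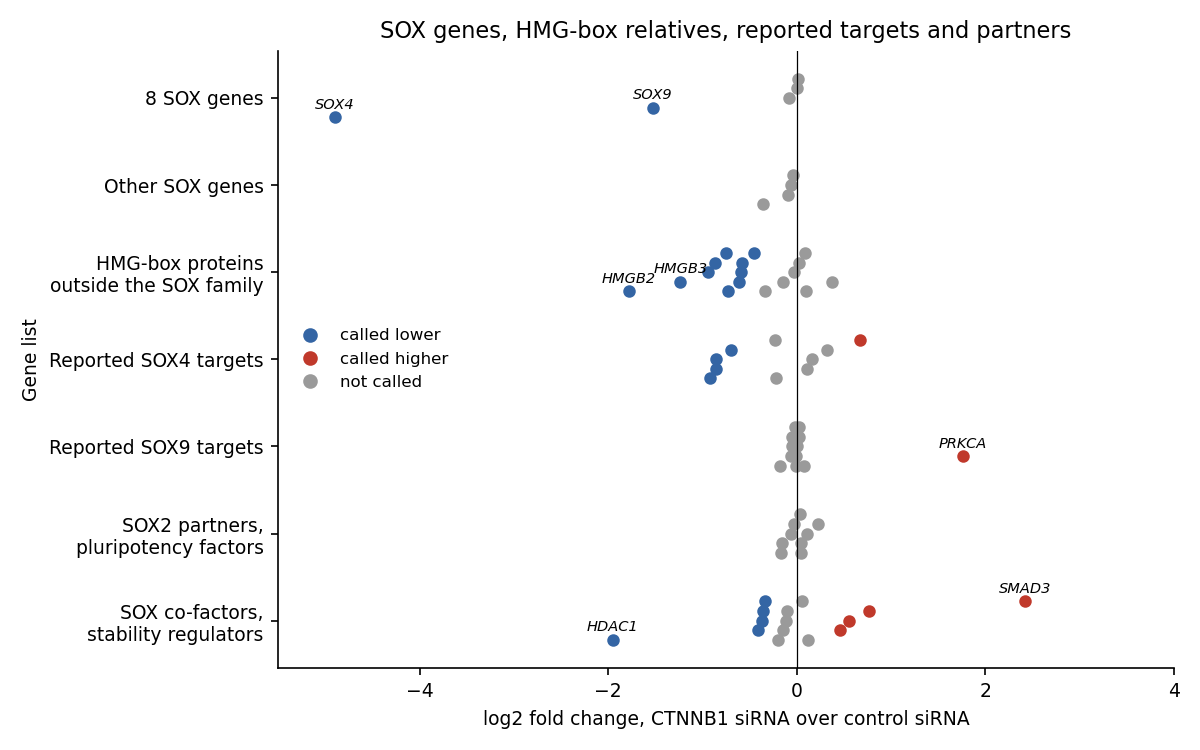
Log2 fold change after CTNNB1 siRNA relative to control siRNA for each tested gene of 7 lists, 1 point a gene, blue where called lower, red where called higher and grey where not called (vertical offsets only separate points). SOX4 and SOX9 stand apart from the other SOX genes, 10 of 17 HMG-box proteins outside the family are blue, and 11 of 12 reported SOX9 targets are grey.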

How the data were processed

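Each sample's RNA was hybridised to 1 whole-transcript array after biotin labelling, per the labels' protocols. The authors deposited log2 levels for transcript clusters, made with Affymetrix Expression Console and RMA, per the submitters' processing notes. Tool versions, the variant of RMA and the array's genome build are not stated there or in the labels. Fold changes hold on that scale only.

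Of 67528 clusters, 23781 carried 1 symbol in the platform annotation, updated through RefSeq (GRCh38.p14). The cluster with the highest mean stood for a gene. Genes above the 30th percentile of the mean, 15679 in all, entered a linear model per gene in limma 3.58.1 (R 4.3.3) with eBayes moderation, 2 groups and no block, with 2 residual degrees of freedom (5.66 after moderation), 2-sided, adjusted by Benjamini-Hochberg. An exact permutation test of 2 against 2 cannot go below p = 0.33 for 1 gene. The fit was tested on simulated data.

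Members and lists were chosen with earlier results of these data known. The text names the 8 members, CTNNB1, the further SOX genes by level, up to 4 called genes per list with the largest change, the 5 closest profiles and chromosomal neighbours. Further genes in the text were picked with their values in view. Medians and counts describe lists, with no set test. Alternatives were other level filters, another quantile normalization, a trended prior, the replicate number as a block, the mean of a gene's clusters and leaving out each array. List genes without a cluster of 1 symbol, and SRY, were not analysed here. Promoters of 6 members came from RefSeq. Plots used matplotlib 3.10.9 under Python 3.11.15.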

Additional observations from a re-analysis of the deposited data

How the results depend on the processing

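The calls of SOX4 and SOX9, and the lack of a call for SOX2, SOX12 and SOX13, were kept under each of the 6 settings that used all 4 arrays and still tested the gene. With the replicate number as a block, the adjusted p in limma was 0.020 for SOX4 and 0.025 for SOX9. The numbers are not said to mark a shared culture, and deviations of same-numbered arrays correlated across genes with r = 0.27. That block lowered the number of co-factors and stability regulators that fell from 5 to 3, since CTBP2 and XPO1 did not pass, with adjusted p-values of 0.062 and 0.093. Without a level filter RUNX2 did not pass (adjusted p 0.065), which left 4 co-factors and stability regulators that fell. With a trended prior EPCAM did not pass (adjusted p 0.052), and 1 of the further SOX genes, SOX8, was called lower. After another quantile normalization, 1 HMG-box gene outside the family, BBX, was called higher, with an adjusted p of 0.034, and PBRM1 was called lower (adjusted p 0.041), which brought those that fell to 11. The reported SOX4 targets called higher were then 2, with DICER1 added at an adjusted p of 0.034, and also 2 among genes above the 50th percentile, where its adjusted p was 0.044. The causes were not tested.

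With any 1 array left out, 1 residual degree of freedom remained, the lone sample was taken to vary like the other group, and 0 genes passed in limma at the adjusted threshold among the members, all lists and all tested genes. At an unadjusted p under 0.05, 1 to 2 members, and 2397 to 2772 of all tested genes, were then lower and 2118 to 2457 higher. The log2 fold change then ranged from -4.92 to -4.88 for SOX4, from -1.965 to -1.085 for SOX9, from -0.055 to 0.085 for SOX2, from -0.06 to 0.07 for SOX12, from -0.155 to -0.015 for SOX13, from -0.10 to 0.01 for SOX5, from -0.095 to 0.065 for SOX6 and from -0.28 to -0.06 for SOX11. Among the tested members, the sign turned for SOX2 without control replicate 2 (-0.055). For SOX12 it turned without control replicate 1 (-0.06) or CTNNB1 siRNA replicate 1 (-0.025), and neither gene was called. Among the untested members, it turned for SOX5 without CTNNB1 siRNA replicate 2 (0.01). For SOX6 it turned without control replicate 1 (0.05) or CTNNB1 siRNA replicate 2 (0.065).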
